A study of Mus musculus with 6 samples.

Results

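The 36 genes described here belong to interferon signalling, the NF-kB pathway and the cytokines and chemokines that both pathways control. They were taken by symbol from a list that was drawn up with earlier results of these data known, so that counts over them are descriptions, and 35 of the 36 were found in the deposited table of 31245 genes. Il6 is not analysed here. Of the 35, 31 had a mean normalized count of at least 10 over the 6 libraries and were tested, among 16653 genes tested in all. Mx1, Cxcl1, Ccl5 and Ccl7 lay below that mean and are given by their values only. The RNA came from mouse primary cortical neuronal cultures, made from the cortex of pups at postnatal day 1 and kept for 12 to 13 days in vitro. NGPF2, a factor whose name the labels do not spell out, was added to 3 cultures at 1.5 ng/ml for 2 h, and 3 cultures received its vehicle, phosphate-buffered saline, for the same time. The labels name no strain, genotype or sex, and each replicate number joins an NGPF2 and a vehicle culture into a pair, with 3 pairs from 3 independent experiments. A culture prepared this way also holds glial cells, and the labels give no step that removes them.

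Type I interferon acts through a receptor and Janus kinases on STAT2, which joins IRF9 in a complex that binds a DNA element, the interferon-stimulated response element (ISRE), in front of antiviral genes. NF-kB dimers of the Rela, Relb, Nfkb1 and Nfkb2 products are held in the cytoplasm by inhibitors such as the Nfkbia product and, once released, switch on chemokines, cytokines, adhesion molecules and their own inhibitors through kappaB elements. In brain tissue microglia and astrocytes are the best known sources of these transcripts, and neurons also carry interferon receptors and NF-kB subunits.

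The stretches shown next carry ISRE matches of 4 antiviral members, a kappaB match beside an ISRE match in B2m and on its own in Nfkbia, and a GAS match in Socs3. They come from RefSeq promoter windows of GRCm38.p6, each from 250 bases before to 50 bases after an annotated start, and 26 of the 35 genes had such a window. Mx1, Usp18, Ifi27, Ccl2, Ccl5, Ccl7, Nfkb1, Relb and Vcam1 had no window. Each stretch is written 5′ to 3′ on the strand of the gene, and capitals mark every match to GAAANNGAAA (ISRE), GGGNNTTTCC (kappaB) or TTCNNNGAA (the gamma-activated site, GAS, bound by STAT dimers), on either strand. Isg15 lies at chr4:156200865-156200906 on the minus strand, Ifit1 at chr19:34640775-34640823 and Ifit3 at chr19:34583363-34583426 on the plus strand, and Bst2 at chr8:71537577-71537618 on the minus strand. B2m lies at chr2:122147538-122147580 on the plus strand, Nfkbia at chr12:55492657-55492686 and Socs3 at chr11:117969502-117969530 on the minus strand.
Isg15: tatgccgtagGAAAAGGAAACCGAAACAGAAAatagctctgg
Ifit1: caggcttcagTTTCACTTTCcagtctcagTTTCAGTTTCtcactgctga
Ifit3: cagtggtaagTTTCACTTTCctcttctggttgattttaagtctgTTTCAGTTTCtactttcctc
Bst2: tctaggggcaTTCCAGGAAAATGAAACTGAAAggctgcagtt
B2m: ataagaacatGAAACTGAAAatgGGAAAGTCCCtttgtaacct
Nfkbia: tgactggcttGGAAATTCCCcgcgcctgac
Socs3: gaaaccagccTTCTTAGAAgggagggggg

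Isg15 holds 3 overlapping ISRE matches, Ifit1 and Ifit3 hold 2 separate ones, and in Bst2 a GAS match runs into 2 overlapping ISRE matches. Over the windows, an ISRE match was present for 8 of the 26 members (Isg15, Ifit1, Ifit3, Stat2, Rsad2, Bst2, Cxcl10 and B2m), against 3.99% of 27025 genes with a window. A kappaB match was present for 5 (Cxcl1, Nfkb2, Nfkbia, Tnfaip3 and B2m), against 1.89% of genes. A GAS match was present for 6 (Ifit2, Irf1, Bst2, Nfkb2, Icam1 and Socs3), against 9.55% of genes. A match describes these letters only and is not a measured binding site.

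Library totals ran from 17478070 to 45193691 counts in NGPF2 cultures and from 24311967 to 44788235 in vehicle cultures. Values are normalized counts, the count divided by the size factor of its library, and a log2 difference refers to that value with 1 added, which understates the fold of low genes. A library with 0 counts allows up to 3 counts, which is 1.92, 3.59 and 5.38 normalized counts in NGPF2 1, 2 and 3, against 1.93, 2.68 and 3.58 in vehicle 1, 2 and 3 (counting error only). The sample titles of replicates 2 and 3 share a library name stem that replicate 1 lacks, so replicates 2 and 3 were read as 1 library batch and replicate 1 as another; the titles themselves do not call this a batch. Summed astrocyte markers were 50367, 31890 and 26460 normalized counts in NGPF2 1, 2 and 3, against 47975, 110786 and 102750 in vehicle 1, 2 and 3. Summed microglia markers were 2475, 403 and 420 in NGPF2 1, 2 and 3, against 2308, 1219 and 1152 in vehicle 1, 2 and 3. In replicates 2 and 3, 15 of 15 tested astrocyte and 10 of 13 tested microglia markers fell with NGPF2 (limma, adjusted p under 0.05). In the same fit 11.3% of all genes tested fell. Both lists thus moved with the results given next, and their part in those results was not tested. In bulk RNA, fewer cells of a type and less RNA per cell cannot be told apart.

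Over the 3 pairs, none of the interferon, NF-kB or cytokine genes passed the test. With limma and the pair as a block, 0 of 31 members had an adjusted p under 0.05, and the background was 0 of 16653 genes (0.0%). The smallest adjusted p among the members was 0.379. At an unadjusted p under 0.05 there were 9 of 31 members and 2166 of 16653 genes. Voom on the recovered counts called 0 genes, with 2 members and 1315 genes at that unadjusted level. The 3 pairs differed from each other. Of the 31 tested members, 16 were below 0 in pair 1 (NGPF2 minus vehicle), 27 in pair 2 and 25 in pair 3. Among all genes tested, 50.8%, 50.5% and 50.0% were below 0 in pairs 1, 2 and 3. More than 2-fold differences were seen for 0 members in pair 1, 13 in pair 2 and 15 in pair 3, where 2.43%, 15.4% and 15.9% of all genes tested differed by that much in pairs 1, 2 and 3. The median log2 difference of the members was -0.01, -0.66 and -0.92 in pairs 1, 2 and 3, and that of all genes tested lay between -0.01 and 0.00 in each pair. Without replicate 1 the same fit called 3275 genes, with 10 members lower, and without NGPF2 1 alone or vehicle 1 alone it called 10 members and 3219 or 3209 genes.

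**Figure D1:**
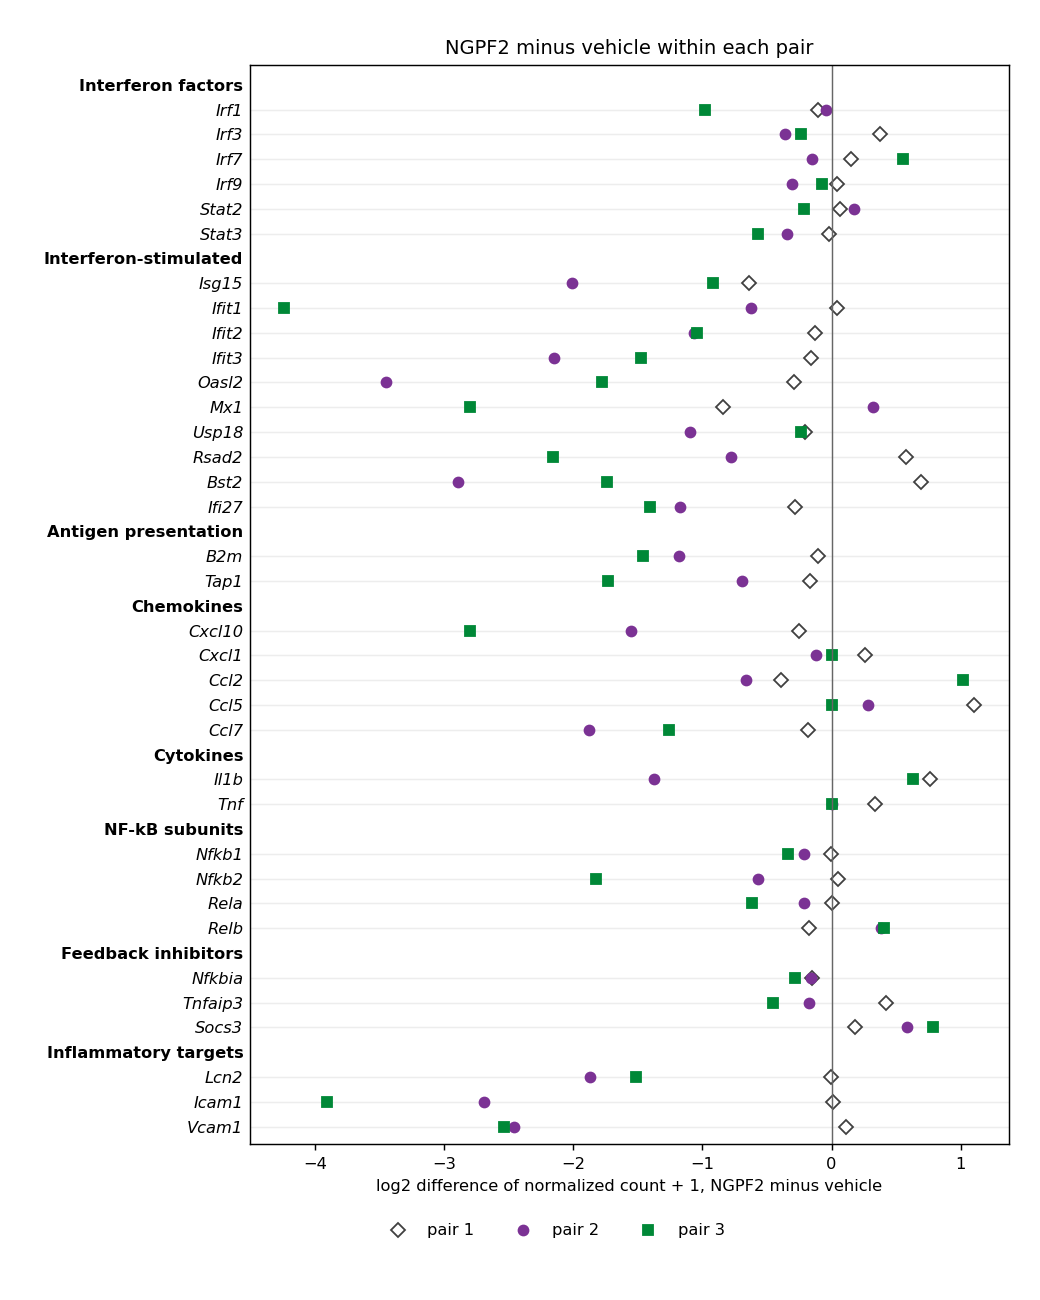
The log2 difference of the normalized count plus 1, NGPF2 minus vehicle, for each of the 35 genes by role, with a diamond for pair 1, a circle for pair 2 and a square for pair 3. Most diamonds lie near 0, with a median of -0.01 over the tested members, while the circles and squares of most interferon-stimulated genes and inflammatory targets lie below -1.

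Within replicates 2 and 3, 10 members fell and 0 rose. They were the interferon-stimulated genes Ifit2, Ifit3, Oasl2, Bst2 and Ifi27, the adhesion molecules Icam1 and Vcam1, the siderophore-binding lipocalin Lcn2, the MHC class I light chain B2m and the transcription factor Stat3. These are 10 of 31 tested members, or 32.3%, where 11.3% of all genes tested were lower. On the higher side there were 0 members, where 9.77% of all genes were higher (limma, 2 libraries against 2, no block). For 22 members, or 71.0%, both NGPF2 libraries lay below both vehicle libraries, which held for 32.7% of all genes tested. Relb and Socs3 alone among the members, or 6.45%, lay above in both NGPF2 libraries, and neither passed the test. The same held for 5377 of 16653 genes tested. The counts over all genes were 1627 higher and 1884 lower, and became 982 higher and 2659 lower with scaling to library totals, which moved the median of all genes by -0.126 and called the same 10 members. No gene and no member passed without vehicle 2 or without vehicle 3, 2 members passed with no filter on low counts (Vcam1 lower and Relb higher), and the p-values take replicates 2 and 3 as independent cultures.

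**Figure D2:**
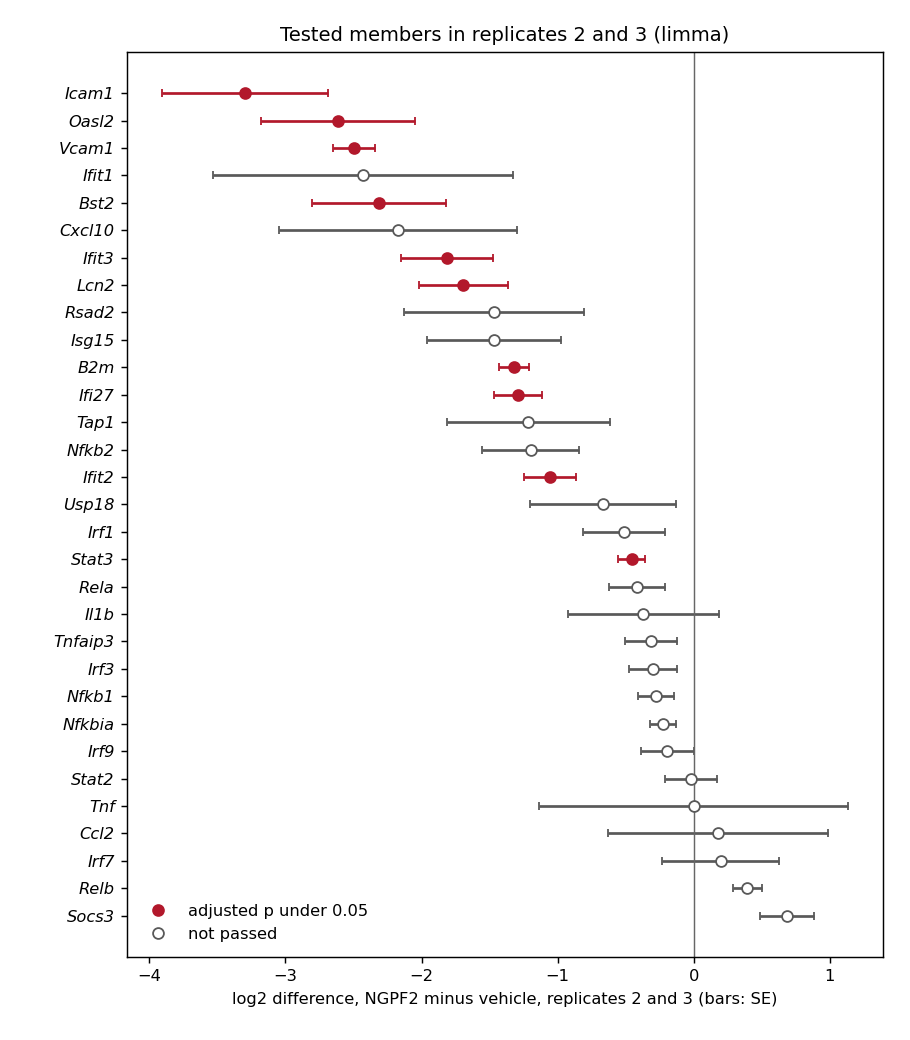
The log2 difference between NGPF2 and vehicle in replicates 2 and 3 for the 31 tested members, with SE bars and filled points for an adjusted p under 0.05 (limma). All 10 filled points lie below 0, from -3.30 for Icam1 to -0.46 for Stat3, and Socs3 has the most positive difference at 0.69.

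The interferon-stimulated members are antiviral effectors whose transcripts are made when interferon reaches a cell. Of the 9 tested, 5 fell in replicates 2 and 3, where 11.3% of all genes tested fell. The group median was -0.16, -1.17 and -1.47 in pairs 1, 2 and 3. That of all genes tested lay between -0.01 and 0.00 in each pair. Ifit3, which binds foreign RNA together with its relatives Ifit1 and Ifit2, had 118, 15.5 and 25.1 normalized counts in NGPF2 1, 2 and 3, against 132, 72.3 and 71.6 in vehicle 1, 2 and 3. The replicates 2 and 3 of the groups did not overlap, while replicate 1 was high in both. Ifit3 was 3.51-fold lower in replicates 2 and 3 (log2 -1.81, SE 0.34, adjusted p = 0.0234, limma). The nearly identical gene Ifit3b also fell, and the count of either is uncertain, as the sources used here do not say how reads shared by the copies were counted. Ifit2 had 154, 80.1 and 71.8 normalized counts in NGPF2 1, 2 and 3, against 168, 169 and 149 in vehicle 1, 2 and 3. Only NGPF2 2 and 3 stood apart from the other libraries for Ifit2, which was 2.08-fold lower there (log2 -1.06, SE 0.19, adjusted p = 0.0216, limma), a call lost without NGPF2 3. Ifit1 had 71.0, 7.17 and 0 in NGPF2 1, 2 and 3, against 69.0, 11.6 and 17.9 in vehicle 1, 2 and 3, and did not pass (log2 -2.43, SE 1.10, adjusted p = 0.181, limma). The 3 genes stand in a row on chromosome 19 (mm10), with Ifit2 at 34550694 to 34576419, Ifit3 at 34583531 to 34588731 and Ifit1 at 34640871 to 34650009.

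Oasl2, a relative of the oligoadenylate synthetases, had 111, 3.59 and 10.8 normalized counts in NGPF2 1, 2 and 3, against 135, 49.1 and 39.4 in vehicle 1, 2 and 3. It was 6.12-fold lower in replicates 2 and 3 (log2 -2.61, SE 0.57, adjusted p = 0.0337, limma), resting on 3 and 6 counts in NGPF2 2 and 3. Bst2, or tetherin, which holds budding viruses at the cell surface, had 102, 3.59 and 7.18 in NGPF2 1, 2 and 3, against 62.6, 33.0 and 26.2 in vehicle 1, 2 and 3. NGPF2 1 was thus the highest library for Bst2, and NGPF2 2 and 3 the lowest. The difference in replicates 2 and 3 was 4.97-fold (log2 -2.31, SE 0.49, adjusted p = 0.0323, limma), and it did not pass without NGPF2 2 or with quantile scaling. Ifi27, a mitochondrial protein strongly induced by interferon, had 226, 88.5 and 87.9 in NGPF2 1, 2 and 3, against 275, 201 and 235 in vehicle 1, 2 and 3. It was 2.45-fold lower in replicates 2 and 3 (log2 -1.29, SE 0.18, adjusted p = 0.0102, limma).

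The ubiquitin-like modifier Isg15 had 35.2, 4.78 and 8.97 normalized counts in NGPF2 1, 2 and 3, against 55.5, 22.3 and 17.9 in vehicle 1, 2 and 3. Both libraries of NGPF2 2 and 3 were below the vehicle ones, from 4 and 5 counts, and the difference did not pass (log2 -1.47, SE 0.49, adjusted p = 0.0964, limma). Rsad2, or viperin, had 88.9, 4.78 and 5.38 in NGPF2 1, 2 and 3, against 59.3, 8.93 and 27.4 in vehicle 1, 2 and 3 (adjusted p = 0.177, limma, replicates 2 and 3). Usp18, the protease that removes Isg15 and dampens the receptor, had 38.4, 10.8 and 8.97 in NGPF2 1, 2 and 3, against 44.5, 24.1 and 10.7 in vehicle 1, 2 and 3 (adjusted p = 0.422). The NGPF2 library of replicate 2 lay just above the vehicle library of replicate 3 for Usp18, so the groups overlapped. Mx1, a dynamin-like antiviral GTPase, stayed at 12.3 or less in every library and was at 0 in NGPF2 3. The 10 genes together summed to 950, 222 and 226 normalized counts in NGPF2 1, 2 and 3, against 1014, 594 and 601 in vehicle 1, 2 and 3, which is a ratio of 0.937, 0.374 and 0.376 in pairs 1, 2 and 3. The presence of an ISRE match did not part the genes that passed from those that did not, since Isg15 and Ifit1 carry several and did not pass, and Ifit2 has none in its windows and passed.

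**Figure D3:**
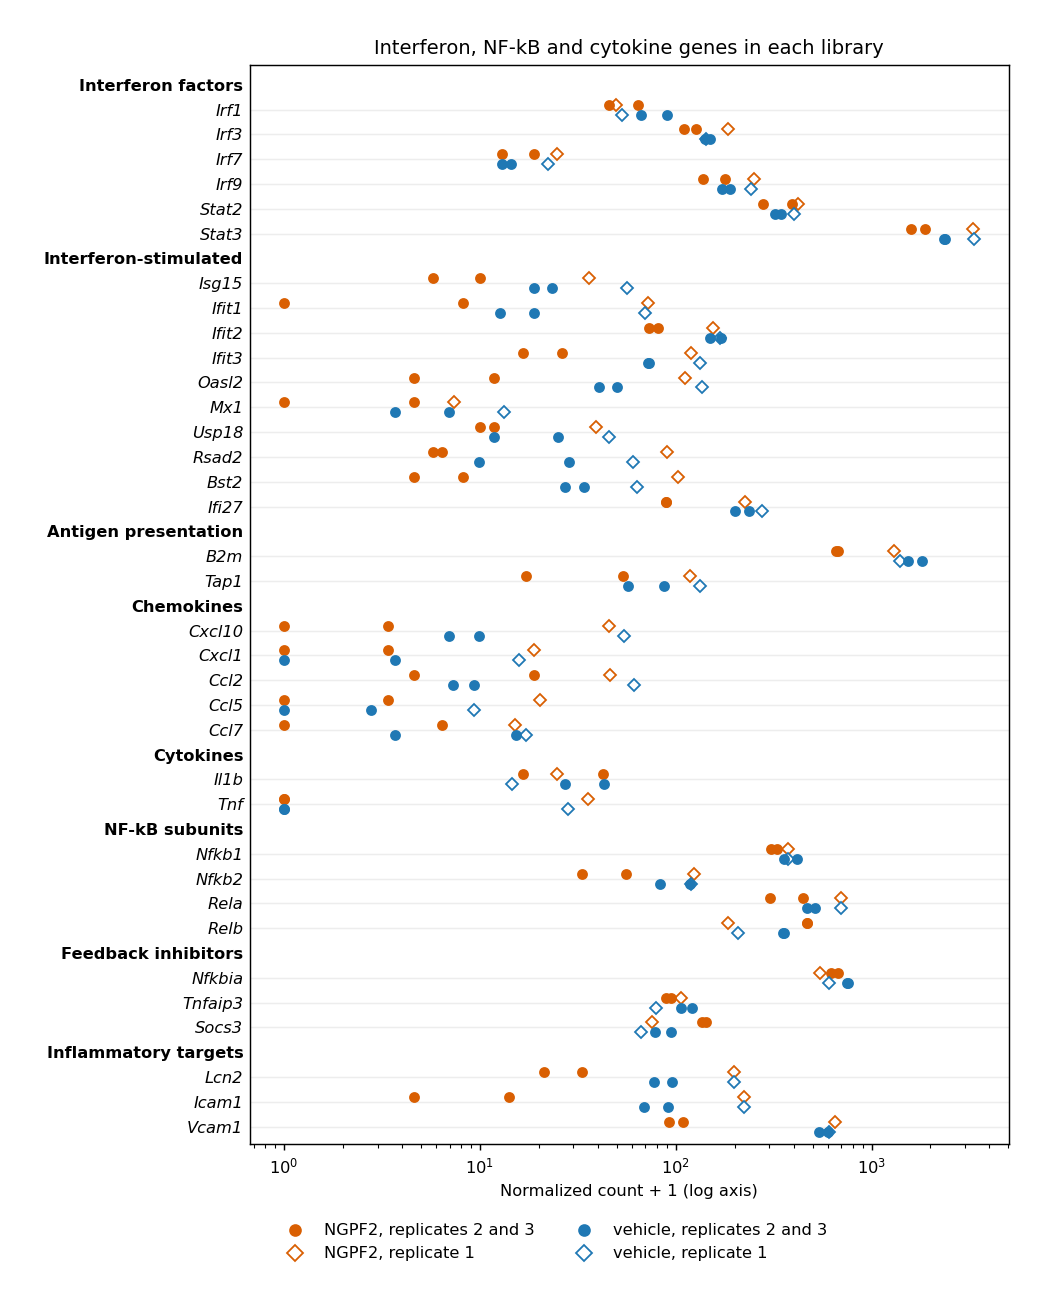
Normalized count plus 1 on a log axis for each of the 35 genes in each library, with open diamonds for replicate 1, filled circles for replicates 2 and 3, NGPF2 in orange and vehicle in blue. For Vcam1 the NGPF2 circles stand at 108 and 91.5 normalized counts, apart from the other 4 libraries at 536 to 652.

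Of the 6 transcription factors of the pathway only Stat3 fell in replicates 2 and 3, where 11.3% of all genes tested fell. The median log2 difference of the 6 factors was 0.05, -0.23 and -0.22 in pairs 1, 2 and 3. Stat3, which carries signals of interleukin 6 family cytokines, had 3306, 1865 and 1587 normalized counts in NGPF2 1, 2 and 3, against 3348, 2370 and 2350 in vehicle 1, 2 and 3. NGPF2 2 and 3 were the lowest libraries, and both replicate 1 libraries were higher than all others. The fall in replicates 2 and 3 was 1.37-fold (log2 -0.46, SE 0.10, adjusted p = 0.0346, limma). Stat2, the partner of Irf9 in the interferon-activated complex, had 419, 390 and 278 in NGPF2 1, 2 and 3, against 400, 346 and 322 in vehicle 1, 2 and 3, with overlapping groups (log2 -0.02, SE 0.19, adjusted p = 0.955, limma, replicates 2 and 3). Irf9 had 250, 137 and 178 in NGPF2 1, 2 and 3, against 242, 171 and 187 in vehicle 1, 2 and 3 (log2 -0.19, SE 0.19, adjusted p = 0.518). On 2.28% of its exon bases Irf9 overlaps the more abundant gene Rnf31 on the same strand, so its count is uncertain. Irf3, the factor activated by nucleic acid sensors, had 184, 109 and 126 in NGPF2 1, 2 and 3, against 141, 140 and 148 in vehicle 1, 2 and 3 (log2 -0.30, SE 0.18, adjusted p = 0.288). Irf3 thus lay above vehicle in replicate 1 and below it in the other pairs. Irf1, an early target of STAT dimers, had 48.6, 63.4 and 44.9 in NGPF2 1, 2 and 3, against 52.2, 65.2 and 89.5 in vehicle 1, 2 and 3. Irf7, which amplifies interferon production, stayed between 11.96 and 23.7 in NGPF2 cultures and between 11.9 and 21.3 in vehicle cultures. Since 1.19% of its exon bases overlap the far more abundant antisense gene Phrf1, the low count of Irf7 is uncertain. Neither Irf1 nor Irf7 passed in replicates 2 and 3 (adjusted p = 0.282 and adjusted p = 0.772, limma).

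Of the 2 antigen presentation members B2m fell and Tap1 did not pass. B2m, the light chain of MHC class I, had 1301, 672 and 657 normalized counts in NGPF2 1, 2 and 3, against 1402, 1528 and 1805 in vehicle 1, 2 and 3. NGPF2 2 and 3 stood apart from all other libraries, and the fall in replicates 2 and 3 was 2.497-fold (log2 -1.32, SE 0.11, adjusted p = 0.00325, limma). Tap1, a subunit of the peptide transporter that loads class I molecules, had 118, 52.6 and 16.2 in NGPF2 1, 2 and 3, against 132, 85.7 and 56.1 in vehicle 1, 2 and 3. Both NGPF2 libraries of replicates 2 and 3 were below both vehicle libraries for Tap1, by a margin that did not pass (log2 -1.21, SE 0.60, adjusted p = 0.212, limma). Among 15 other tested genes of class I presentation 2 fell and 1 rose, shares close to the 11.3% lower and 9.77% higher among all genes. Without regard to the test, both NGPF2 libraries of replicates 2 and 3 lay below both vehicle libraries in 13 of the 15, or 86.7%. The same held for 32.7% of all genes, and in 1 of the 15 both lay above. H2-K1, a class I heavy chain, had 435, 155 and 115 in NGPF2 1, 2 and 3, against 358, 229 and 327 in vehicle 1, 2 and 3 (log2 -1.03, SE 0.25, adjusted p = 0.0461, limma), a call lost with quantile scaling and without NGPF2 2 or NGPF2 3. Tap2, the other transporter subunit, also fell (log2 -1.94, SE 0.37, adjusted p = 0.0251). Psmb10, a catalytic subunit of the immunoproteasome, rose to 714 and 754 in NGPF2 2 and 3, against 400 and 411 in vehicle 2 and 3 (log2 0.85, SE 0.10, adjusted p = 0.00742), and had 436 in NGPF2 1 and 447 in vehicle 1.

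Chemokines and cytokines were scarce in every library of replicates 2 and 3, and none passed between NGPF2 and vehicle. Cxcl10, the interferon-induced attractant of T cells, had 44.8, 2.39 and 0 normalized counts in NGPF2 1, 2 and 3, against 53.5, 8.93 and 5.96 in vehicle 1, 2 and 3 (log2 -2.18, SE 0.88, adjusted p = 0.144, limma, replicates 2 and 3). The counts behind the values of replicates 2 and 3 were 2 and 0 with NGPF2 and 10 and 5 with vehicle. Cxcl10 also shares 5.91% of its exon bases with the antisense gene Art3. Ccl2, which attracts monocytes, had 45.4, 3.59 and 17.9 in NGPF2 1, 2 and 3, against 59.97, 6.25 and 8.35 in vehicle 1, 2 and 3, with overlapping groups (log2 0.18, SE 0.81, adjusted p = 0.893). Its neighbour Ccl7, whose gene starts 8258 bases from the end of Ccl2 on chromosome 11, had 14.1, 0 and 5.38 in NGPF2 1, 2 and 3, against 16.1, 2.68 and 14.3 in vehicle 1, 2 and 3. Cxcl1, a neutrophil attractant under NF-kB control, had 17.9, 2.39 and 0 in NGPF2 1, 2 and 3, against 14.8, 2.68 and 0 in vehicle 1, 2 and 3. Ccl5 had 19.2, 2.39 and 0 in NGPF2 1, 2 and 3, against 8.38, 1.79 and 0 in vehicle 1, 2 and 3. At 3 counts or fewer per library, a difference in Cxcl1 or Ccl5 was not detectable in replicates 2 and 3.

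Tnf, a main activator of NF-kB, had 34.5 normalized counts in NGPF2 1 and 27.1 in vehicle 1, from 54 and 42 counts, and was at 0 in the other 4 libraries. It was therefore at least 6.42-fold lower in NGPF2 2 and 3 than in NGPF2 1, and at least 7.57-fold lower in vehicle 2 and 3 than in vehicle 1, with 3 counts per library as the floor. Il1b, the cytokine released by inflammasomes, had 23.7, 15.5 and 41.3 in NGPF2 1, 2 and 3, against 13.5, 42.0 and 26.2 in vehicle 1, 2 and 3. Il1b was above vehicle in pairs 1 and 3 and below it in pair 2 (log2 -0.37, SE 0.55, adjusted p = 0.670, limma, replicates 2 and 3).

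The NF-kB subunits showed no call in either direction. Rela, the main transactivating subunit, had 697, 444 and 303 normalized counts in NGPF2 1, 2 and 3, against 697, 515 and 465 in vehicle 1, 2 and 3 (log2 -0.42, SE 0.21, adjusted p = 0.211, limma, replicates 2 and 3). Nfkb1, the precursor of p50, had 374, 307 and 327 in NGPF2 1, 2 and 3, against 375, 357 and 414 in vehicle 1, 2 and 3 (log2 -0.28, SE 0.13, adjusted p = 0.199). Nfkb2, the precursor of p52 in the noncanonical pathway, had 123, 55.0 and 32.3 in NGPF2 1, 2 and 3, against 119, 82.2 and 117 in vehicle 1, 2 and 3 (log2 -1.20, SE 0.36, adjusted p = 0.0726). Relb, its usual partner, went the other way, with 184, 465 and 465 in NGPF2 1, 2 and 3, against 207, 356 and 351 in vehicle 1, 2 and 3 (log2 0.39, SE 0.11, adjusted p = 0.0577). Relb passed as higher with quantile scaling (adjusted p under 0.05, log2 0.50) and with no filter on low counts. On 6.52% of its exon bases Nfkb2 overlaps the abundant antisense gene Psd, and its count is uncertain, as the sources used here give no strand setting for the counting. The 4 subunits together summed to 1378, 1271 and 1127 in NGPF2 1, 2 and 3, against 1399, 1311 and 1347 in vehicle 1, 2 and 3.

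Feedback inhibitors, which NF-kB and STAT factors switch on against themselves, did not pass either. Nfkbia, which encodes the inhibitor IkB-alpha, had 544, 674 and 623 normalized counts in NGPF2 1, 2 and 3, against 606, 753 and 759 in vehicle 1, 2 and 3 (log2 -0.22, SE 0.10, adjusted p = 0.164, limma, replicates 2 and 3). Tnfaip3, the ubiquitin-editing enzyme A20, had 105, 93.3 and 87.9 in NGPF2 1, 2 and 3, against 78.03, 105 and 120.5 in vehicle 1, 2 and 3 (log2 -0.31, SE 0.19, adjusted p = 0.303). Socs3, the STAT3-induced brake on cytokine receptors, had 74.8, 141 and 135 in NGPF2 1, 2 and 3, against 65.8, 93.8 and 77.5 in vehicle 1, 2 and 3. It was the only member above vehicle in each of the 3 pairs, by 0.18, 0.58 and 0.79 (log2). Socs3 missed the threshold over the 3 pairs (adjusted p = 0.393, limma) and in replicates 2 and 3 (log2 0.69, SE 0.20, adjusted p = 0.0675), and passed there only with quantile scaling among the settings tried.

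The 3 inflammatory targets all fell in replicates 2 and 3 and were near equal in pair 1. Vcam1, an adhesion molecule that NF-kB induces on vessels and astrocytes, had 652, 108 and 91.5 normalized counts in NGPF2 1, 2 and 3, against 603, 596 and 536 in vehicle 1, 2 and 3. It was 5.64-fold lower in replicates 2 and 3 (log2 -2.50, SE 0.16, adjusted p = 0.00201, limma), the smallest adjusted p of any member. Icam1, the ligand of leukocyte integrins, had 223, 13.2 and 3.59 in NGPF2 1, 2 and 3, against 222, 90.2 and 68.0 in vehicle 1, 2 and 3. It was 9.84-fold lower (log2 -3.30, SE 0.61, adjusted p = 0.0231), the largest fold among the 10 that passed, from 11 and 2 counts in NGPF2 2 and 3. On 11.72% of its exon bases Icam1 overlaps the antisense gene Gm47079, so its count is uncertain for want of a strand setting. Lcn2, a secreted lipocalin of reactive astrocytes, had 197, 20.3 and 32.3 in NGPF2 1, 2 and 3, against 198, 76.8 and 94.2 in vehicle 1, 2 and 3. It was 3.23-fold lower (log2 -1.69, SE 0.33, adjusted p = 0.0260), a call lost without NGPF2 2. The sum of the 3 genes gave a ratio of NGPF2 to vehicle of 1.05, 0.185 and 0.183 in pairs 1, 2 and 3, where the same ratio was 1.05, 0.288 and 0.258 for the astrocyte markers and 1.07, 0.330 and 0.365 for the microglia markers.

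**Figure D4:**
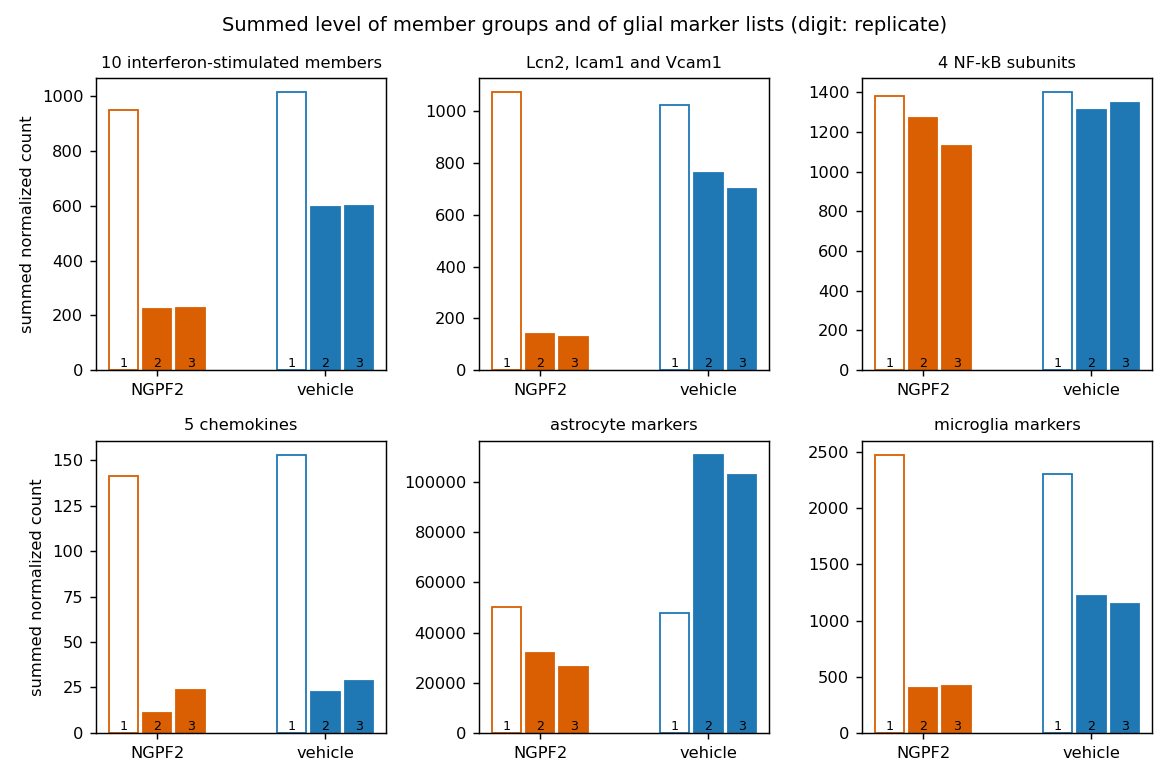
Summed normalized counts in each library (bar digits give the replicate, open bars replicate 1) for 4 groups of members and for the astrocyte and microglia marker lists, NGPF2 left of vehicle. In replicates 2 and 3 the NGPF2 bars of interferon-stimulated members, inflammatory targets and both marker lists lie well below the vehicle bars, and those of the NF-kB subunits stand at 1271 and 1127 against 1311 and 1347.

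Whether the effect itself differed between the library batches was tested as an interaction. Vcam1 was the only member that passed, its effect in replicates 2 and 3 minus that in replicate 1 being -2.61 (log2, SE 0.25, adjusted p = 0.0207, limma), and B2m came next (log2 -1.21, SE 0.19, adjusted p = 0.05001, just above the threshold). This is 1 of 31 members lower and 0 higher, where 1.77% of all genes had a more negative and 0.721% a more positive effect in replicates 2 and 3. For 8 further members that fell in replicates 2 and 3 (Ifit2, Ifit3, Oasl2, Bst2, Ifi27, Icam1, Lcn2 and Stat3) a difference from replicate 1 did not pass, with adjusted p from 0.116 for Bst2 to 0.246 for Stat3. With 1 library per group in replicate 1, the fit takes its spread to be that of replicates 2 and 3. B2m passed as well with the replicate block (adjusted p = 0.0420, limma), with quantile or library total scaling, with a pseudocount of 5 and with a minimum mean of 50. Bst2 and Icam1 passed in addition to Vcam1 and B2m with voom (4 members), and no member passed without vehicle 2 or without vehicle 3.

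In the main setting 3 members passed between the vehicle cultures of the batches, a smaller share than among all genes. The contrast sets 2 libraries against 1 whose spread is assumed to be that of the others. Vehicle replicates 2 and 3 had less Tnf (log2 -4.81, SE 0.99, adjusted p = 0.0309, limma) and less Stat3 (log2 -0.50, SE 0.12, adjusted p = 0.0451) than vehicle replicate 1, and more Relb (log2 0.77, SE 0.14, adjusted p = 0.0228). Tnf was at 0 in all 4 libraries of replicates 2 and 3, so the fit had no spread of Tnf to measure. Its SE and p rest on the spread of other genes. The 3 calls are 2 of 31 members lower and 1 higher, where 9.42% of all genes were lower and 10.5% higher. In this setting the calls do not set the members apart, whereas with voom a larger share of members than of all genes was lower. In sign, 22 of 31 members were lower in vehicle 2 and 3, where 50.7% of all genes tested were. The 5 chemokines summed to 22.3 and 28.6 normalized counts in vehicle 2 and 3, against 153 in vehicle 1, and the 10 interferon-stimulated genes to 594 and 601 in vehicle 2 and 3, against 1014 in vehicle 1. Vcam1 and B2m had log2 differences of -0.09 (SE 0.18) and 0.24 (SE 0.13) and adjusted p = 0.749 and adjusted p = 0.262 (limma). The chemokine sum stood at 0.167 times the level of vehicle 1. On the same measure mural and fibroblast markers stood at 0.155, inhibitory neuron markers at 0.383 and microglia markers at 0.514 times. Astrocyte markers stood at 2.23 and excitatory neuron markers at 3.12 times. The median log2 difference of tested genes was -2.83 for mural and fibroblast, -1.14 for inhibitory neuron and -1.20 for microglia markers. It was 0.99 for astrocyte and -0.11 for excitatory neuron markers, so the excitatory sum does not describe the typical marker of its list. The part of these lists in these differences was not tested. No member passed without vehicle 2 or without vehicle 3, 8 passed without NGPF2 2, 9 passed without NGPF2 3 and 12 passed with voom. The batch, the experiment and the pair number 1 cannot be told apart.

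**Figure D5:**
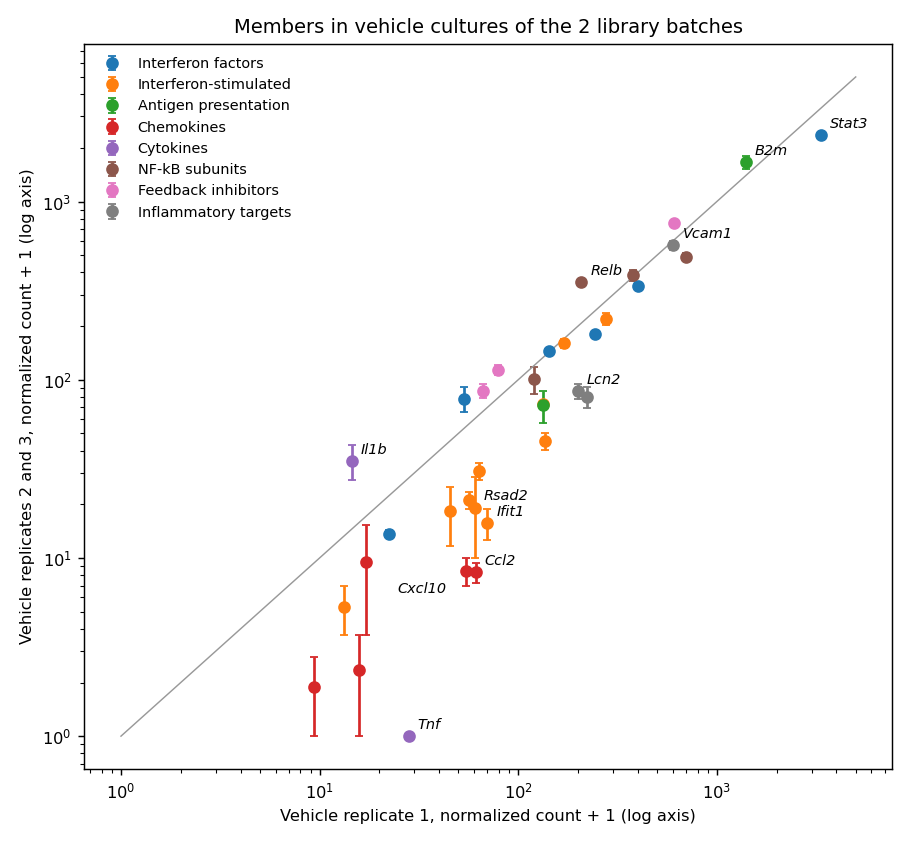
Normalized count plus 1 of the 35 genes in vehicle replicates 2 and 3 (mean, with bars from the lower to the higher library) against vehicle replicate 1, both on log axes, coloured by role, with the line of equal values. Tnf lies at 0 counts in vehicle 2 and 3, chemokines and most interferon-stimulated genes lie below the line, and Relb and Il1b are among those above it.

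Other genes of these pathways were read from 8 lists, to be set beside the 11.3% lower and 9.77% higher among all genes. Of 29 other tested interferon-stimulated genes, 14 fell and 0 rose in replicates 2 and 3. Eif2ak2, the kinase that stops translation when double-stranded RNA is present, had 191, 37.1 and 26.9 normalized counts in NGPF2 1, 2 and 3, against 233, 247 and 241 in vehicle 1, 2 and 3 (log2 -2.91, SE 0.24, adjusted p = 0.00316, limma). Gbp3, a guanylate-binding protein, was 9.77-fold lower, Ifitm2, which blocks virus entry, 5.21-fold, and the secreted glycoprotein gene Lgals3bp 3.25-fold (adjusted p = 0.00620, adjusted p = 0.00479 and adjusted p = 0.00535). Of 14 tested interferon receptors, Janus kinases and regulators 0 fell and 2 rose. Socs1, a brake on Janus kinases, had 67.8, 110 and 102 in NGPF2 1, 2 and 3, against 76.1, 34.8 and 46.5 in vehicle 1, 2 and 3 (log2 1.38, SE 0.25, adjusted p = 0.0225), a call lost without NGPF2 2 or NGPF2 3. Ifngr2, a chain of the interferon gamma receptor, rose 1.32-fold (adjusted p = 0.0245), a call lost with library total scaling and without NGPF2 2, NGPF2 3 or vehicle 2, among other settings. Ifnb1 and Ifna4 are not analysed here.

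Among 15 tested genes of nucleic acid and Toll-like receptor sensing, 5 fell (Tlr3, Mavs, Ticam1, Irak1 and Irak4) and 1 rose (Tbk1), and Irak4 and Tbk1 are named after their values were seen. Tlr3, the endosomal receptor of double-stranded RNA, had 99.1, 15.5 and 17.9 normalized counts in NGPF2 1, 2 and 3, against 99.95, 168 and 144 in vehicle 1, 2 and 3 (log2 -3.15, SE 0.25, adjusted p = 0.00312, limma). Of 22 other tested NF-kB pathway genes 3 fell and 0 rose, on the lower side a share close to that of all genes. Tnfrsf1a, the main receptor of tumour necrosis factor, had 381, 111 and 89.7 in NGPF2 1, 2 and 3, against 412, 600 and 493 in vehicle 1, 2 and 3 (log2 -2.43, SE 0.18, adjusted p = 0.00276). Nfkbiz, a nuclear cofactor of NF-kB, fell 2.22-fold (adjusted p = 0.0173), and Ikbkg, the scaffold of the IkB kinase, 1.40-fold (adjusted p = 0.0275), the call of Ikbkg being lost without NGPF2 3.

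Of 19 other tested cytokines and chemokines, Csf1, a growth factor of microglia, was the only one to fall (log2 -2.08, SE 0.31, adjusted p = 0.0134, limma), with 254, 40.6 and 71.8 normalized counts in NGPF2 1, 2 and 3, against 293, 252 and 213 in vehicle 1, 2 and 3. None rose, and Cx3cl1, the neuronal ligand of the microglial receptor Cx3cr1, had 2282, 4257 and 5711 in NGPF2 1, 2 and 3, against 1496, 3354 and 3524 in vehicle 1, 2 and 3 (log2 0.52, SE 0.15, adjusted p = 0.0653, replicates 2 and 3). Of 12 tested cytokine receptors 2 fell and 2 rose, again near the shares among all genes. Osmr, the receptor chain for oncostatin M, had 192, 10.8 and 5.38 in NGPF2 1, 2 and 3, against 173, 192 and 212 in vehicle 1, 2 and 3 (log2 -4.55, SE 0.38, adjusted p = 0.00335, limma). Lifr, a receptor chain of the same family, went the other way, with 1399, 1738 and 1814 in NGPF2 1, 2 and 3, against 1267, 876 and 889 in vehicle 1, 2 and 3 (log2 1.01, SE 0.08, adjusted p = 0.00277). Cxcr4 fell 2.35-fold and Ackr3, which binds the same chemokine as Cxcr4, rose 1.58-fold (adjusted p = 0.0275 and adjusted p = 0.0412). Ackr3 did not pass with the replicate block (adjusted p = 0.0558, limma), with library total scaling or without NGPF2 2 or NGPF2 3, and Cxcr4 did not pass with quantile scaling or without NGPF2 3. Of 17 tested acute-phase and STAT3-responsive genes 6 fell and 1 rose (Junb, named after its values were seen). C4b, a complement component, was at 269, 0 and 0 in NGPF2 1, 2 and 3, against 251, 297 and 308 in vehicle 1, 2 and 3, and so at least 55.2-fold lower in NGPF2 2 and 3 than in the lower vehicle library of that batch, with 3 counts per library as the floor. A2m, Cp and S1pr3 fell 5.82-fold, 5.26-fold and 3.29-fold (adjusted p = 0.00222, adjusted p = 0.00228 and adjusted p = 0.00730, limma). Over the 3 pairs no gene of any of these lists passed.

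Per kilobase of exon, the members spanned a wide range of levels in the same cultures. On the scale of normalized counts per kilobase, B2m stood highest with 1019 ± 428 in NGPF2 and 1835 ± 239 in vehicle cultures (SD, n = 3 each). Nfkbia followed with 381 ± 40.6 in NGPF2 and 438 ± 53.7 in vehicle cultures, Stat3 with 236 ± 96.9 in NGPF2 and 282 ± 59.9 in vehicle, and Rela with 157 ± 65.0 in NGPF2 and 182 ± 39.7 in vehicle cultures. In vehicle cultures B2m lay above all others beyond its spread, whereas Rela and Ifi27 (162 ± 25.4) did not differ beyond theirs. Of lowest mean in vehicle cultures, Ccl5, Cxcl1 and Mx1 averaged 7.49, 3.61 and 0.879 in NGPF2 and 3.53, 3.11 and 1.84 in vehicle cultures, the NGPF2 mean of Ccl5 resting on NGPF2 1, with SDs of 10.9, 5.19 and 0.847 in NGPF2 and 4.60, 4.22 and 1.29 in vehicle cultures. The defining microglial marker Tmem119 was at 0 in NGPF2 2 and 3, against 2.68 and 3.58 normalized counts in vehicle 2 and 3. As 0 counts allow up to 3.59 and 5.38 in NGPF2 2 and 3, a difference in Tmem119 was not detectable. The endothelial marker Cldn5 did not exceed 2.68 in any library. Snap25, a synaptic protein of neurons, had 22402 to 53910 in NGPF2 and 22024 to 50015 in vehicle cultures.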

How the data were processed

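Messenger RNA was isolated with oligo(dT) beads, fragmented and made into amplified cDNA libraries, per the labels' protocols. In the submitters' processing notes the tools are FastQC, STAR 2.5, Cuffnorm and DESeq 1.22.1 and the build is mm10, without their roles. The sources used here name no counting tool, strand setting or annotation. The deposited values are log2 values although the table is named for FPKM. On the linear scale, less 1, 100% of values were whole multiples of a single step per library (within 0.01 of a count), and each step equals the inverse of a median-of-ratios size factor of 0.557 to 1.56. Whole counts were recovered this way.

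The deposited log2 values (pseudocount 1) entered linear models in limma 3.58.1 under R 4.3.3 (mean-variance trend, 2-sided, Benjamini-Hochberg over the 16653 genes averaging 10 or more normalized counts, threshold 0.05) in 4 contrasts. These were the 3 pairs with the replicate as a block, replicates 2 and 3 without a block, the difference of the effect between library batches, and vehicle replicates 2 and 3 minus vehicle replicate 1. The fits were tested on simulated data. Replicate numbers were taken as pairs from the series' design, and as a check the correlation across genes of the deviations in the NGPF2 and vehicle libraries of a pair was 0.59, 0.30 and 0.33 in pairs 1, 2 and 3, and 0.32 and 0.34 for replicates 2 and 3 crossed, so that it does not tell these replicate numbers apart. The columns of replicate 1 carry the digit 3 and were assigned by initial and elimination. The members, the 8 pathway lists and the 9 marker lists were chosen with earlier results of these data known. All members are named, and from each list the 4 genes with the lowest p in replicates 2 and 3 at most, with defining cell markers. Ifit3b, Irak4, Tbk1, Junb, Vip and Rgs5 are named outside this rule. Alternatives covered the pseudocount, the filter, the scaling, voom, the block and each left-out library. Coordinates, exon lengths and overlaps come from GENCODE M21 (mm10), promoter windows from RefSeq, and figures were drawn with matplotlib 3.10.9.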

Additional observations from a re-analysis of the deposited data

Results flagged for a closer look

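For 25 of the genes named here, the effect of NGPF2 in replicates 2 and 3 differed from that in replicate 1 by the interaction test (limma, adjusted p under 0.05), with 20 differences negative and 5 positive. Without vehicle 2 or without vehicle 3 no gene passed this test. On the log2 scale, among interferon, NF-kB and cytokine pathway genes the difference was -2.61 for Vcam1, -2.62 for Eif2ak2, -2.40 for Ifitm2, -3.13 for Tlr3, -2.32 for Tnfrsf1a, -4.70 for Osmr, -2.49 for A2m, -2.24 for Cp and -8.34 for C4b, whose value rests on 0 counts in NGPF2 2 and 3. Among glial markers it was -5.05 for Gfap, -4.56 for Aqp4, -2.80 for Slc1a3, -2.10 for Glul, -2.17 for Laptm5, -4.49 for Fcer1g, -2.49 for Olig1 and -2.62 for Olig2. Among mural and fibroblast markers it was 1.67 for Tagln and -1.80 for Col3a1. Among neuronal markers it was -1.22 for Slc17a6, 0.97 for Neurod2, -1.02 for Sst, 3.59 for Pvalb, 0.78 for Stmn2 and 0.95 for Nefm. All members are named, but list genes were mostly named for a low p in replicates 2 and 3. That rule favours a large effect there, so the number of named genes that differed does not describe the pathways.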

How the results depend on the processing

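No recomputed log2 difference of a named gene changed sign under any setting tried. Over the 3 pairs, 1 gene passed with a pseudocount of 5 and 1 with no replicate block, and leaving out libraries or pairs gave 0 to 3275 genes and 0 to 10 members. The blocked value is the one given for the pairs. In replicates 2 and 3, no filter gave 1074 genes and 2 members, the replicate block gave 3275 genes and the same 10 members, and leaving out 1 library gave 0 to 3206 genes and 0 to 12 members. For the difference between batches, 2 members passed with a pseudocount of 5, a minimum mean of 50, no filter, quantile scaling, library totals or the replicate block, and 4 with voom. Genes numbered 733 with a minimum mean of 50, 4684 with no filter, 1368 with voom and 526 with the replicate block, and 0 to 412 genes and 0 to 2 members with 1 library left out. Between vehicle batches voom gave 4999 genes and 12 members, leaving out 1 library gave 0 to 3898 genes and 0 to 9 members, and no filter turned the split of 1753 higher and 1569 lower to 1308 and 3028. Of the named genes recomputed the block changed the call of Ackr3 (lost in replicates 2 and 3) and of B2m (gained for the difference between batches), and it could not be fitted for the vehicle batches. With 1 library left out a lone library is assumed to vary like the others. Fewer genes or libraries change the fit itself, and the cause of the changed calls was not tested. Depth limits chemokines, Mx1 and Tnf, which lie at 0 to 12 counts per library in replicates 2 and 3.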

Other observations

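Markers of other cell types were also read in replicates 2 and 3 (limma, adjusted p under 0.05), where 9.77% of all genes tested rose and 11.3% fell. Of 10 tested pan-neuronal markers 6 rose and 0 fell, among them Nefm, a neurofilament subunit, with 2983, 13683 and 14729 normalized counts in NGPF2 1, 2 and 3, against 2927, 7175 and 7247 in vehicle 1, 2 and 3. Markers of inhibitory neurons went both ways, with 6 of 12 higher and 3 (Sst, Npy and Vip) lower. Pvalb, the calcium-binding protein of fast-spiking interneurons, had 41.6, 420 and 488 in NGPF2 1, 2 and 3, against 54.2, 46.4 and 48.9 in vehicle 1, 2 and 3, while Sst, a peptide of another interneuron class, had 1536 and 1434 in NGPF2 2 and 3, against 2998 and 3286 in vehicle 2 and 3. Of 6 tested markers of oligodendrocyte precursors 4 (Cspg4, Olig1, Olig2 and Lhfpl3) fell. Of 11 mural and fibroblast markers Pdgfrb, Rgs5, Col3a1 and Vtn fell and Tagln rose, and of 4 endothelial markers Slco1a4 fell. Vip and Rgs5 are named after their values were seen.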
